A study of Mus musculus with 12 samples.

Results

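The transcripts described here are Pparg and 9 genes typical of fat cells, Adipoq, Plin1, Cfd, Cidec, Retn, Lep, Fabp4, Lipe and Thrsp, measured in whole mouse uterus. They are 10 of the 19291 genes that could be tested on the array, and were found by gene name, with 14 of its 41174 probes; Plin1 carries its older name Plin in the design. All 10 passed the filter on dim probes. The genes were chosen by their measured levels in wild-type uteri, Pparg being higher and the others lower after estradiol than after saline, so their values in that comparison, and in the difference between the genotypes' responses, are a description with no test. The series compared 4 groups of 3 adult, ovariectomized C57bl6/Jx129 females: EAAE mice given estradiol (E2), EAAE mice given saline, WT mice given E2 and WT mice given saline. EAAE is an Esr1 genotype that the series title describes as a DNA-binding-deficient estrogen receptor alpha, and Esr1 is the gene of that receptor. All mice were at least 10 weeks old, rested for 10 to 14 days after removal of the ovaries, received an injection of 100 µl, and gave their uterus 2 h later. The dose of E2 is not given in the sources used here, and neither is whether the EAAE mice carried 1 or both altered copies. Each array held RNA of 1 uterus, and how the tissue around the organ was trimmed is not given in the sources used here.

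PPARγ, the product of Pparg, is a nuclear receptor that binds DNA as a partner of the retinoid X receptors and is the main switch of fat-cell formation. In mature fat cells it drives genes of lipid uptake and storage, Adipoq, Fabp4, Plin1 and Cidec among them, and it is also made by macrophages, endothelium and some epithelia. The other genes divide into hormones and secreted factors of fat (Adipoq, adiponectin; Retn, resistin; Lep, leptin; Cfd, adipsin), proteins of the lipid droplet (Plin1, which guards it; Cidec, which enlarges it), a carrier of fatty acids (Fabp4), an enzyme of fat breakdown (Lipe, hormone-sensitive lipase), and Thrsp, a thyroid-hormone-responsive nuclear protein linked to fatty acid synthesis.

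RefSeq lists 3 start windows for Pparg, and they are shown because a single probe stood for the gene and gave 1 level for all its transcripts. Each covers 250 bases before and 50 after a transcript start in build GRCm38.p6, on the plus strand, at chr6:115360894-115361193, chr6:115362099-115362398 and chr6:115421816-115422115. Capitals mark AGGTCA, the nuclear receptor half-site, searched on both strands.
Pparg window 1: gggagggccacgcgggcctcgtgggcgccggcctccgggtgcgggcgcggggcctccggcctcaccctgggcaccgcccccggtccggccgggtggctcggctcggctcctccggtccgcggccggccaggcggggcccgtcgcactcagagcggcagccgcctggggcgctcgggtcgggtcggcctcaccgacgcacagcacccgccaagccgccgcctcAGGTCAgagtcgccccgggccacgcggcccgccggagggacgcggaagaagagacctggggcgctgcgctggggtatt
Pparg window 2: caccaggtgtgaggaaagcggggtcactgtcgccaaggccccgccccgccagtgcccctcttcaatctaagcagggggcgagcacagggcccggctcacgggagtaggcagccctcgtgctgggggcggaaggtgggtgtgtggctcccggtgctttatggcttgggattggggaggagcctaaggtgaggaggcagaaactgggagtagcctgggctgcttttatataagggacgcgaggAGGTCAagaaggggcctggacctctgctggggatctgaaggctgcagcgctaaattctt
Pparg window 3: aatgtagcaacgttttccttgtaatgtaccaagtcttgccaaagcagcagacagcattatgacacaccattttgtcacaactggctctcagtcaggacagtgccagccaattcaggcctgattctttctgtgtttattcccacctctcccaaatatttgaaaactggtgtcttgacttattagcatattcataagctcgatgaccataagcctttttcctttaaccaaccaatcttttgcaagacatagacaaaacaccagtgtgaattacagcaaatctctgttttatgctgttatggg
The half-site starts at position -28 from the transcript start in the window at chr6:115360894-115361193 and at position -9 in that at chr6:115362099-115362398. It was present in 16.26% of all 32851 windows in the table. RefSeq gave 13 windows for 9 of the 10 genes, and no window of the other 8 genes held it. The direct repeat that PPARγ and its partner bind (AGGTCA again after 1 base) and the estrogen response element (GGTCA, any 3 bases, then TGACC) were in none of the 13 windows, and in 0.04% and 0.07% of all windows. A match is a run of letters and not a site shown to be bound.

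The C/EBP palindrome TTGCGCAA, in capitals in the next window, was in 1 of the 13 windows, that of Lep at chr6:29059971-29060270 on the plus strand, and in 0.18% of all windows. It is shown because Lep was not well above background in WT uteri after E2.
Lep window: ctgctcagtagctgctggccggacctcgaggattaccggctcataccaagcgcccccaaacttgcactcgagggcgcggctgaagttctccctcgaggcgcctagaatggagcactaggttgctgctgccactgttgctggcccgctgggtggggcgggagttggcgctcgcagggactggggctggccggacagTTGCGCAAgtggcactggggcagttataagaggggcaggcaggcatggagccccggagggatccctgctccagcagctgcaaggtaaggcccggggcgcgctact
Thrsp is shown because its levels went opposite ways after E2 in the EAAE and WT uteri. Its window at chr7:97417501-97417800 on the minus strand held none of the 4 motifs.
Thrsp window: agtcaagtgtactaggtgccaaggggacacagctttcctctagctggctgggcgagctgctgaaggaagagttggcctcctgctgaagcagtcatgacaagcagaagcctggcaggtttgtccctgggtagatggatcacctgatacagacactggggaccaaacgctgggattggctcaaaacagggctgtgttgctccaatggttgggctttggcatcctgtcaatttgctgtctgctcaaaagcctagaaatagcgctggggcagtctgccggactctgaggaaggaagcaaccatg

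Each gene was read by one or more 60-base probes printed on the glass. Pparg was read by 1 probe present in 10 spots, which the design places at chr6:115515909-115515968 of the mm7 build, plus strand. Fabp4 was read by 3 probes, and a pair of them is printed because they share no run longer than 7 bases. They lie at chr3:10216627-10216686 and within chr3:10212718-10213447 of mm7, minus strand.
Fabp4 probe at chr3:10216627-10216686: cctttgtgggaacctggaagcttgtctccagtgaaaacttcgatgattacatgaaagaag
Fabp4 probe within chr3:10212718-10213447: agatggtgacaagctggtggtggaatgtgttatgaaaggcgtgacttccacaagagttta
The E2-minus-saline difference in WT uteri was -3.13 with the first and -3.46 with the second, and -3.53 with the probe that stands for the gene. Adiponectin was read by 1 probe at chr16:22816125-22816184 of mm7, plus strand.
Adipoq probe: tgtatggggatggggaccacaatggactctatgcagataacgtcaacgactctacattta
The pairs of probes for Retn and Lipe also moved alike, with differences of -3.51 and -3.34 for Retn and of -1.24 and -1.69 for Lipe. The Retn probes share a run of 22 bases and are not independent of each other.

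Levels are given as log2 intensity minus the log2 of the array's 75th percentile, so that 0 marks a spot as bright as that percentile and 1 unit is a factor of 2. The 75th percentile lay between 1398.0 and 1941.8 intensity units, and between 64.0% and 74.0% of spots were well above background. None of the 10 genes was saturated on any array. All 15 markers of uterine epithelium and smooth muscle were tested, and each was well above background in every group on 1 array or more. After E2 in WT uteri 2 of them rose and 3 fell, where 19.6% of all genes rose and 29.8% fell. EAAE uteri had more Esr1 transcript than WT uteri, by 0.42 after E2 (adjusted p = 0.00302, limma) and by 0.41 under saline (adjusted p = 0.00901), and its level does not check the altered allele. The 12 arrays sat on 3 slides of 4, each scanned once, and all 3 EAAE E2 arrays had position 4 on their slide. On every slide the WT arrays came before the EAAE arrays. Where a slide held both treatments of a genotype, saline came before E2. Position thus ran along with genotype and treatment in every comparison. The labels say that each sample was a separate mouse.

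After E2, WT uteri had more Pparg transcript than any other group. The level was 2.04, 2.37 and 1.32 in the 3 WT E2 uteri and 0.12, -1.26 and -0.94 in the 3 WT saline uteri. These groups did not overlap, and the lowest WT E2 uterus stood above the highest WT saline uterus. The means were 1.91 ± 0.54 after E2 and -0.69 ± 0.72 under saline (SD, n = 3 each), a difference of 2.60 (SE 0.60), or 6.08-fold higher. In EAAE uteri Pparg was 0.49, -1.11 and -1.68 after E2 and -0.21, -0.53 and -1.70 under saline. Those EAAE groups overlapped throughout, and every one of their 6 values lay below every WT E2 value. The response in EAAE minus that in WT was -2.55 (SE 0.84), in a comparison where 37.3% of all genes passed.

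The fat hormones and droplet genes went the other way in WT uteri. Adipoq was at -1.98, 0.90 and -2.54 in WT E2 uteri and at 4.07, 0.88 and 1.80 in WT saline uteri. WT E2 mouse 2 thus had as much Adipoq as WT saline mouse 2, and the groups overlapped. Plin1 was at -3.52, -1.10 and -4.20 after E2, against 1.79, -1.01 and -0.47 under saline. Cfd was at 0.70, 3.52 and 0.18 after E2, against 6.14, 3.16 and 4.16 under saline. For both genes WT E2 mouse 2 was at or near the lowest saline mouse, with the other 2 far below. The fitted differences in WT uteri were -3.46 (SE 1.14) for Adipoq, -3.05 (SE 1.02) for Plin1 and -3.02 (SE 1.11) for Cfd. Those of Cidec (-3.46, SE 1.15), Retn (-3.51, SE 1.08) and Fabp4 (-3.53, SE 1.05) were of like size. Over the 9 genes the median difference was -3.25, from -3.53 to -1.24, against a median of -0.146 over all 19291 genes, and it was -3.05 with Lep at the bound. In that comparison 49.4% of all genes passed the test. Leaving out WT E2 mouse 2 gave a median of -4.04, and leaving out WT saline mouse 1 a median of -2.45. In a whole organ, fewer cells of a type and less RNA per cell cannot be told apart.

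**Figure D1:**
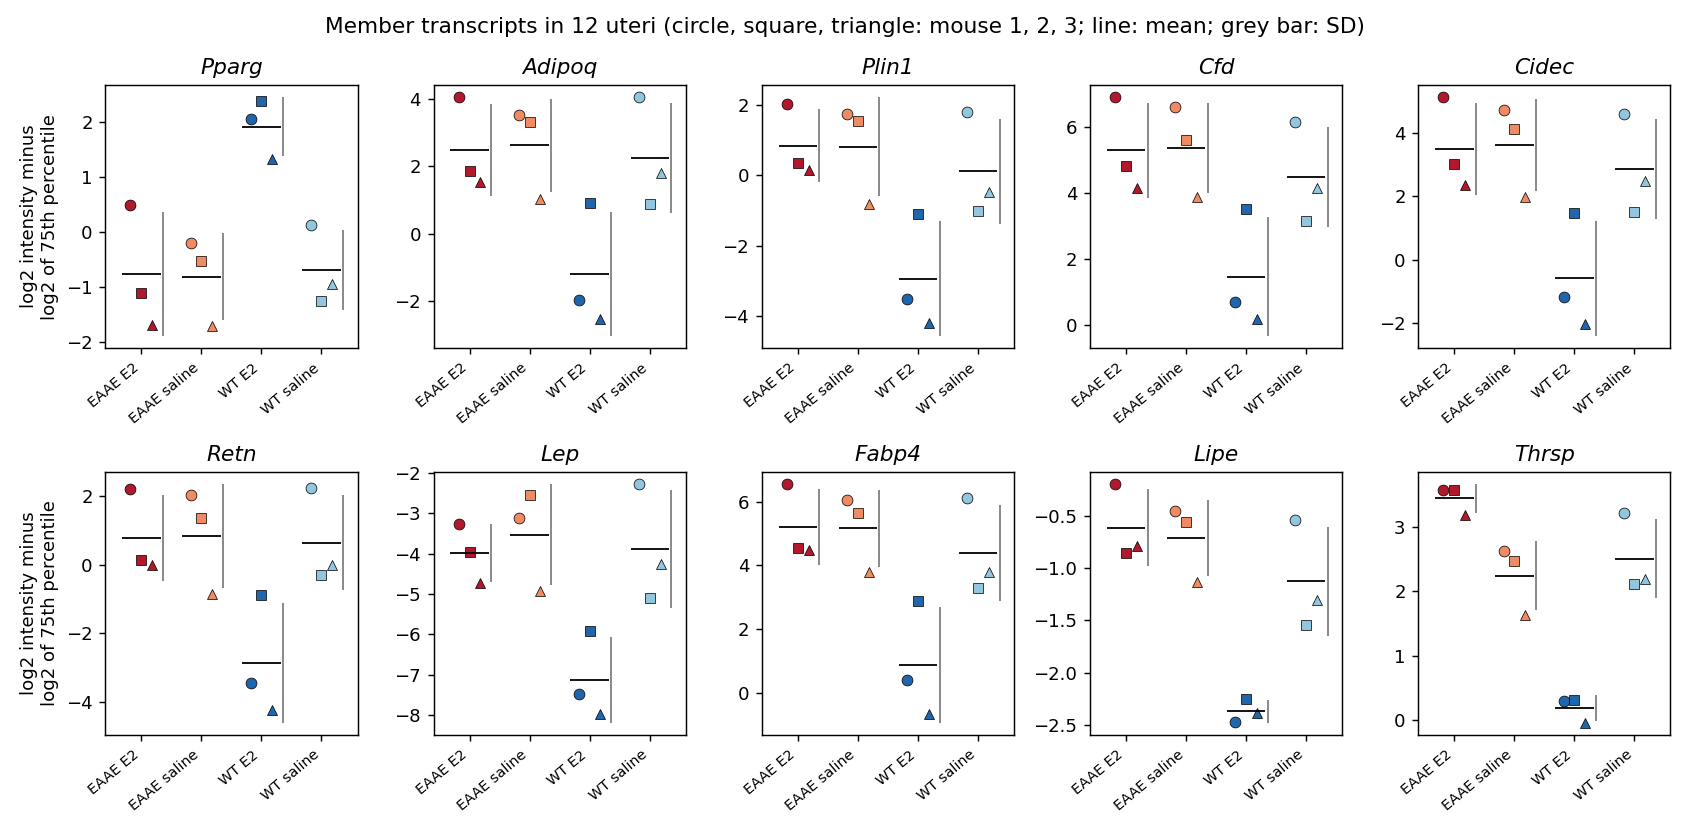
Level of each of the 10 transcripts (vertical axis, log2 intensity minus the log2 of the array's 75th percentile) in EAAE E2, EAAE saline, WT E2 and WT saline uteri. Each symbol is 1 mouse (circle, square and triangle for mice 1, 2 and 3), the black line the mean and the grey bar the SD; Pparg is highest in the 3 WT E2 uteri (1.32 to 2.37), while the means of the other genes are lowest there, with WT E2 mouse 2 reaching the WT saline range for Adipoq, Cfd and Plin1 or nearly so.

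Lipe and Thrsp were low in all 3 WT E2 uteri, mouse 2 included. Lep was not well above background on any WT E2 array. Its measured level was -7.49, -5.93 and -7.97 there, against -2.27, -5.11 and -4.26 in WT saline uteri, where it was well above background in all 3. With the lowest signal flagged well above background on each array as its limit, mean Lep was at least 3.3-fold lower in WT E2 than in WT saline uteri. That limit comes from any probe and not from that of Lep. In WT E2 mouse 2 the limit was -5.22, close to the -5.11 of WT saline mouse 2, so Lep cannot be called lower in that mouse. Lipe was at -2.47, -2.25 and -2.39 in WT E2 uteri and at -0.54, -1.54 and -1.30 in WT saline uteri, with no overlap and a difference of -1.24 (SE 0.27). Thrsp was at 0.30, 0.32 and -0.04 in WT E2 uteri and at 3.22, 2.11 and 2.20 in WT saline uteri, a difference of -2.31 (SE 0.32) without overlap. Its spread between mice was far smaller than that of Adipoq, with SDs of 0.20 for Thrsp and 1.85 for Adipoq in the WT E2 group.

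E2 changed none of the 10 transcripts past the threshold in EAAE uteri (limma, adjusted p under 0.05 over all genes), where 1.44% of all genes passed, 0.684% higher and 0.752% lower. Thrsp alone had an unadjusted p under 0.05. It was at 3.58, 3.57 and 3.18 in EAAE E2 uteri and at 2.63, 2.47 and 1.64 in EAAE saline uteri. The groups did not overlap and the difference was 1.20 (SE 0.32), but it missed the threshold (adjusted p = 0.105, unadjusted p = 0.0037). Thrsp was thus higher after E2 in all 3 EAAE mice and lower after E2 in all 3 WT mice, and the response in EAAE minus that in WT was 3.51 (SE 0.45), not tested. The differences of the other 9 genes in EAAE uteri ran from -0.45 for Lep (SE 0.84, adjusted p = 0.835) to 0.10 for Lipe (SE 0.27, adjusted p = 0.893). Pparg differed by 0.05 (SE 0.60, adjusted p = 0.977) and Adipoq by -0.14 (SE 1.14, adjusted p = 0.967). The SEs of Adipoq, Cfd, Cidec, Fabp4, Plin1 and Retn ran from 1.02 to 1.15, with 0.84 for Lep and 0.60 for Pparg. A change of 1 log2 unit in any of these genes, Pparg included, was not detectable here.

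Under saline the genotypes did not differ past the threshold for any of the 10 transcripts, while 29.6% of all genes passed; none of the 10 had an unadjusted p under 0.05 either. The differences, EAAE minus WT, ran from -0.26 for Thrsp (SE 0.32, adjusted p = 0.576) to 0.87 for Cfd (SE 1.11, adjusted p = 0.589). Pparg differed by -0.12 (SE 0.60, adjusted p = 0.897). Lipe had the smallest adjusted p, at 0.285, with a difference of 0.41 (SE 0.27). This comparison shares its WT saline arrays with the WT comparison from which the genes were chosen.

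After E2 the genotypes stood far apart, with Pparg lower and the 9 fat genes higher in EAAE than in WT uteri. The genes were chosen for their levels on these same WT E2 arrays, so the values are a description. All 10 passed the threshold of the fit, 9 higher and 1 lower, where 33.5% of all genes passed as higher, 24.5% as lower and 58.0% in either direction, and nothing is read from that count. Pparg differed by -2.67 (SE 0.60). Thrsp was higher by 3.25 (SE 0.32), with 3.58, 3.57 and 3.18 in EAAE E2 uteri against 0.30, 0.32 and -0.04 in WT E2 uteri. Lipe was higher by 1.76 (SE 0.27), at -0.19, -0.85 and -0.79 in EAAE E2 uteri against -2.47, -2.25 and -2.39 in WT E2 uteri. Neither gene overlapped between the genotypes after E2. Fabp4 was higher by 4.32 (SE 1.05), the largest difference of the 10, at 6.56, 4.54 and 4.47 in EAAE E2 uteri against 0.39, 2.88 and -0.66 in WT E2 uteri. The lowest EAAE E2 uterus again stood above the highest WT E2 uterus. By the same limit as above, mean Lep was at least 3.1-fold higher in EAAE E2 than in WT E2 uteri, with measured means of -3.98 and -7.13. The other 5 genes were higher by 3.65 (Retn) to 4.11 (Cidec). Leaving out WT E2 mouse 3 or EAAE E2 mouse 1 lowered the count to 7, without Adipoq, Cfd and Retn, and leaving out WT E2 mouse 1 to 9, without Adipoq. With the slide as a block and the position on the slide as a term, the count was 2: Lipe and Thrsp passed and the other 8 did not, Pparg having a difference of -2.54. All EAAE E2 arrays share 1 position, and WT arrays come before EAAE arrays on every slide, so position is tied to genotype. The counts with mice left out or with added terms are a description too. Nothing is read from which of the genes pass.

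**Figure D2:**
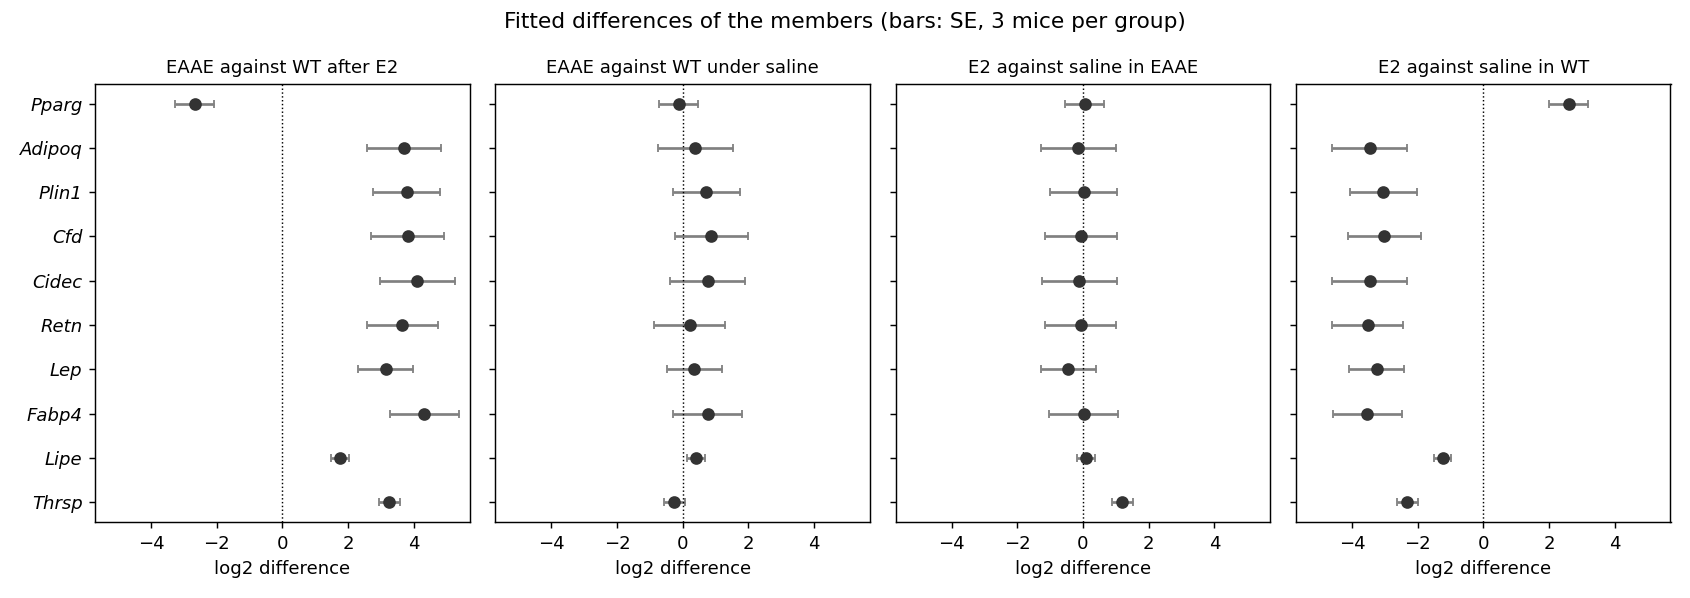
Fitted log2 differences of the 10 transcripts (horizontal axis) in 4 comparisons, with bars of 1 SE and 3 mice per group. Pparg stands opposite to the other 9 genes for EAAE against WT after E2 (-2.67 against 1.76 to 4.32) and for E2 against saline in WT uteri (2.60 against -3.53 to -1.24), while for EAAE against WT under saline the values run from -0.26 (Thrsp) to 0.87 (Cfd), and for E2 against saline in EAAE uteri from -0.45 (Lep) to 1.20 (Thrsp). Lep was not well above background in WT E2 uteri, so its points in the outer panels show measured values and not exact differences.

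Array by array, the amount of fat transcript varied widely within every group, and Pparg varied with it. The mean level of the 9 fat genes was 3.00, 1.50 and 1.15 in EAAE E2 uteri, and 2.64, 2.32 and 0.51 in EAAE saline uteri. It was -2.08, -0.12 and -2.66 in WT E2 uteri and 2.82, 0.33 and 0.94 in WT saline uteri. In each of the 4 groups the mouse with the most fat transcript also had the most Pparg: mouse 1 in EAAE E2, EAAE saline and WT saline uteri, and mouse 2 in WT E2 uteri. Over the 9 arrays other than WT E2, the Pearson correlation of Pparg with this mean was 0.91 and Spearman's rho 0.88, and r was 0.83 without the 2 arrays farthest from the median. Over all 12 arrays, the deviations from group means gave r = 0.91, again a description of arrays that share 4 group means. The straight line through the 9 arrays rose by 0.69 in Pparg per unit of the fat mean, with a residual SD of 0.33.

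The 3 WT E2 uteri lay far above that line. Pparg exceeded the line by 5.38, 4.37 and 5.06 in WT E2 mice 1, 2 and 3. The genes were chosen by their levels in WT uteri, with Pparg higher and the others lower after E2. A place above the line thus follows from the choice, and the distances are a description. WT E2 mouse 2 is the array to look at, because its fat mean of -0.12 lies close to the lowest of the 9 arrays, 0.33 in WT saline mouse 2, whereas the line is extended well past its data for the other 2. On slide 3, which held both of these arrays and WT saline mouse 3, Pparg was 2.37 after E2 against a mean of -1.10 under saline, a difference of 3.47, while the fat mean differed by -0.75. On slide 1, with 1 WT array of each kind, Pparg differed by 1.20 and the fat mean by -5.47. Of these 2 slides, the Pparg difference was larger on the one with the smaller fat difference. With the mean of 16 other adipocyte genes as a covariate, the WT difference of Pparg was 4.30 (SE 0.22), with a slope of 1.0 (SE 0.09), against 2.60 without it. That mean ran from -3.74 to -2.74 in WT E2 uteri and from -2.23 to -0.32 in all others, so that the groups compared did not share a range. In WT E2 uteri 3 of the 16 genes (Acvr1c, Hcar1 and Lgals12) were not well above background on any array. The mean thus rests in part on background values there. With the mean of Adipoq, Cfd, Cidec, Fabp4, Plin1 and Retn as the covariate, the WT difference of Pparg was 4.25 (SE 0.43).

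**Figure D3:**
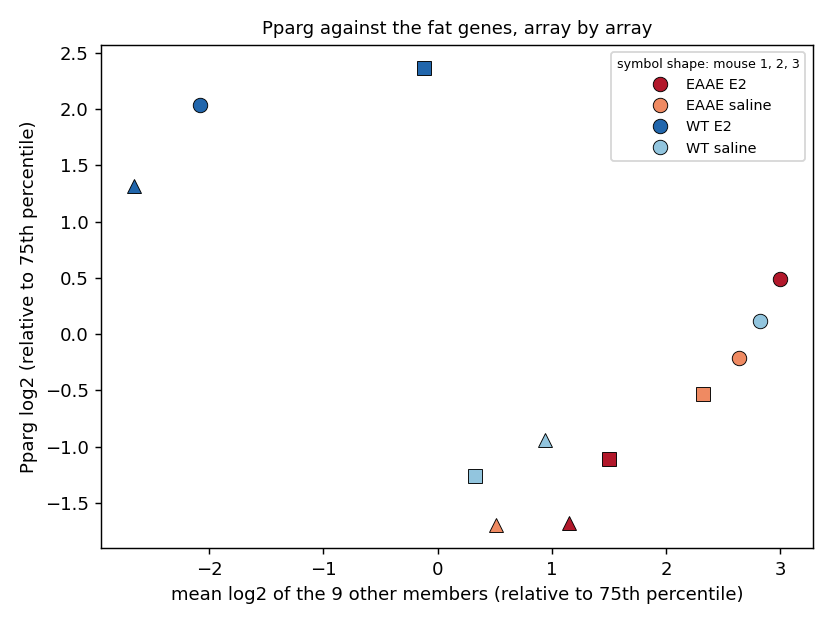
Pparg level (vertical axis) against the mean level of the 9 other genes (horizontal axis), both as log2 units above each array's 75th percentile, with 1 symbol per uterus (colour for the group, shape for the mouse). The 9 EAAE and WT saline uteri lie along 1 rising band, and the 3 WT E2 uteri lie apart at the upper left, with WT E2 mouse 2 (-0.12, 2.37) nearly above WT saline mouse 2 (0.33, -1.26).

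Pparg minus the fat mean put the groups further apart than Pparg alone. It was -2.51, -2.60 and -2.83 in EAAE E2 uteri and -2.85, -2.85 and -2.21 in EAAE saline uteri. It was 4.12, 2.49 and 3.98 in WT E2 uteri and -2.70, -1.59 and -1.87 in WT saline uteri, a WT difference of 5.58. The level itself compares different probes and has no meaning of its own. Only its change between groups can be read, and in WT uteri only as a description. The 6 EAAE values span 0.64, less than a unit, while Pparg itself spans 2.19 units over the same uteri. In WT saline uteri the span was 1.11, against 1.38 for Pparg itself. The WT E2 uteri went the other way, with a span of 1.63 against 1.05 for Pparg itself.

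A like line was drawn for each of the other genes, through the 9 arrays against the mean of the other 8. Adipoq, Cfd, Cidec, Fabp4, Plin1 and Retn lay between -0.66 and 0.86 from their lines in the 3 WT E2 uteri. Their residual SDs ran from 0.14 (Plin1) to 0.31 (Retn), so these distances were larger than the residual SD for some arrays, as for Fabp4 in mouse 3 (-0.66, residual SD 0.18). Thrsp lay below its line by 1.01, 1.78 and 1.13 units (values of -1.01, -1.78 and -1.13), and was furthest below in WT E2 mouse 2. Its line was loose, with r = 0.58 and a residual SD of 0.56, since the EAAE E2 uteri had high Thrsp at every fat level. Against its residual SD the distance of Thrsp was no larger than that of some of the 6. Lipe lay -0.18, -0.76 and 0.15 from its line (residual SD 0.16). No distance is given for Lep, which was not well above background in WT E2 uteri, and the fat means there include its measured values. With the 16-gene mean as a covariate, the WT difference was -1.49 (SE 0.24) for Thrsp, -0.50 (SE 0.15) for Lipe and between -0.68 and 0.03 for Adipoq, Cfd, Cidec, Fabp4, Plin1 and Retn. Thrsp kept its opposite sign in EAAE uteri, at 1.26 (SE 0.18). On slide 3 Thrsp differed by -1.83 in WT uteri, and on slides 1 and 2 by 1.11 and 1.43 in EAAE uteri.

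**Figure D4:**
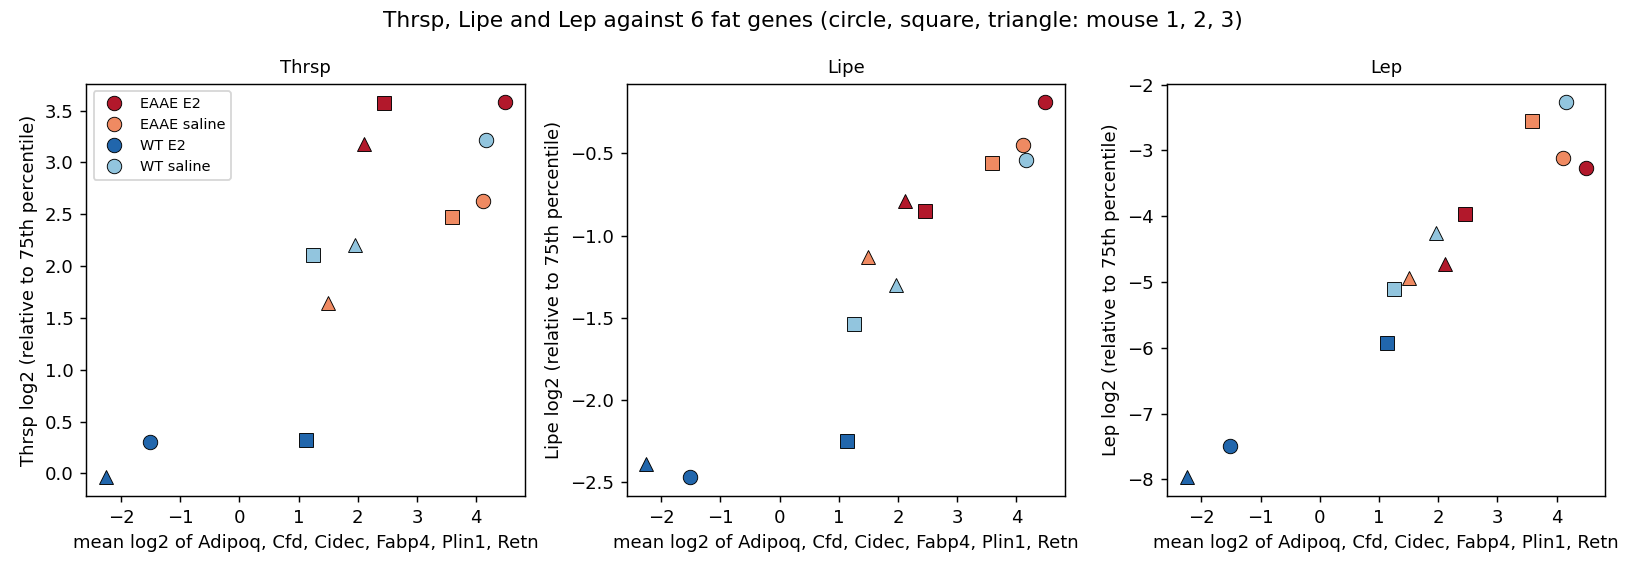
Levels of Thrsp, Lipe and Lep (vertical axes) against the mean of Adipoq, Cfd, Cidec, Fabp4, Plin1 and Retn (horizontal axes), all as log2 units above each array's 75th percentile, with 1 symbol per uterus. At nearly the same fat mean (1.13 and 1.25), WT E2 mouse 2 had less Thrsp than WT saline mouse 2 (0.32 against 2.11), and the 3 EAAE E2 uteri had 3.18 to 3.58 across fat means from 2.11 to 4.49.

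Other genes typical of fat cells were mostly lower in WT uteri after E2. Not all of them are restricted to fat, since Car3, for one, is abundant in muscle too. Of 18 such genes, 16 could be tested, and after E2 in WT uteri 10 fell and none rose, with a median of -1.64 (-1.62 with genes below background at their bound), against 29.8% of all genes lower and 19.6% higher. In EAAE uteri 0 of the 16 passed by limma and 1 had an unadjusted p under 0.05 (median -0.16). The share of all genes with an unadjusted p under 0.05 is not given, so nothing is read from such counts in this or the later lists. EAAE uteri exceeded WT uteri for 10 of 16 after E2 (median 2.04), where 33.5% of all genes were higher, and for 2 of 16 under saline (median 0.42), where 14.5% were. Hcar1, the lactate receptor that restrains fat breakdown, was not well above background on any WT E2 array. By the limit used for Lep, its mean fell at least 6.8-fold in WT uteri after E2 (adjusted p = 1.76e-07, limma on measured values). Hcar1 was at -7.27, -7.33 and -7.03 in WT E2 uteri and at -2.72, -3.18 and -2.68 in WT saline uteri, low in WT E2 mouse 2 as in the others. Cidea, a droplet protein of brown fat, was higher in EAAE than in WT uteri under saline (1.92, adjusted p = 3.78e-05), and fell by 0.55 after E2 in WT uteri (adjusted p = 0.0242). Adrb3, the fat-cell adrenergic receptor, and Ucp1, the brown-fat uncoupling protein, were too dim to test. The summed level of the 16 was 16.8 to 68.5 in EAAE E2 uteri, 14.8 to 53.1 in EAAE saline uteri, 5.85 to 11.3 in WT E2 uteri and 11.3 to 48.0 in WT saline uteri, as multiples of the 75th percentile.

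Enzymes of lipid handling that many cells use were counted in the same way. Of 24 tested, 2 rose and 8 fell after E2 in WT uteri (median -0.65), where 19.6% of all genes rose and 29.8% fell, and none passed in EAAE uteri (median 0.06), 2 having an unadjusted p under 0.05. G0s2, an inhibitor of fat breakdown, fell by 2.57 in WT uteri (adjusted p = 6.89e-06), at -2.87, -2.73 and -3.03 after E2 against -0.10, -0.79 and -0.06 under saline. Lpin1, an enzyme of triglyceride synthesis, fell by 1.38 (adjusted p = 0.000132), and Slc2a4, the insulin-responsive glucose transporter, by 1.09 (adjusted p = 0.000392). Between the genotypes after E2, 10 were higher and 2 lower in EAAE uteri, where 33.5% of all genes were higher and 24.5% lower. The share of falls in WT uteri is thus near that of all genes.

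Partners of PPARγ and factors of fat-cell formation were called at rates near those of all genes. Of 28 tested, 7 rose and 10 fell after E2 in WT uteri (median -0.10), where 19.6% of all genes rose and 29.8% fell. In EAAE uteri 1 fell and none rose past the adjusted threshold, where 0.752% of all genes fell. An unadjusted p under 0.05 was found for 8 of the 28, with no share of all genes at that threshold to set beside it. Cebpb, which acts early in fat-cell formation and switches Pparg on there, rose by 3.29 in WT uteri (adjusted p = 1.88e-07). It was at 6.04, 6.26 and 6.05 in WT E2 uteri and at 2.79, 2.81 and 2.86 in WT saline uteri, with hardly any spread. Klf4, another early factor, rose by 2.12 (adjusted p = 9.73e-08) and Stat5a by 2.38 (adjusted p = 3.20e-07), whereas Klf5 fell by 0.76 (adjusted p = 0.000371). The response in EAAE minus that in WT was -3.83 for Cebpb (adjusted p = 1.89e-06), -2.28 for Klf4 (adjusted p = 1.51e-06) and -2.52 for Stat5a (adjusted p = 5.58e-06).

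Of 19 tested genes that PPAR receptors induce outside fat, 2 rose and 10 fell after E2 in WT uteri (median -0.36), where more of all genes also fell (29.8%) than rose (19.6%). None passed in EAAE uteri. There 6 had an unadjusted p under 0.05, again without a share of all genes at that threshold. Pdk4, a kinase that turns down glucose oxidation, rose by 2.21 in WT uteri (adjusted p = 1.25e-05). Cpt2, of mitochondrial fatty acid uptake, fell by 0.88 (adjusted p = 3.20e-05), and Acot2, a thioesterase of fatty acid oxidation, by 0.93 (adjusted p = 0.000124).

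Markers of other cells in which Pparg is made were counted beside these results. After E2, 19.6% of all genes rose and 29.8% fell in WT uteri, and 1.44% passed in either direction in EAAE uteri. Of 16 macrophage markers, 3 fell and none rose after E2 in WT uteri, and their summed level was 40.6 to 140 in EAAE E2 uteri, 39.3 to 55.9 in EAAE saline uteri, 73.1 to 92.5 in WT E2 uteri and 116 to 179 in WT saline uteri. Of 14 endothelial markers, 1 rose (Eng, by 1.46, adjusted p = 1.08e-05) and 5 fell in WT uteri, and their sum was 62.3 to 72.2 in EAAE E2 uteri, 54.4 to 62.6 in EAAE saline uteri, 51.9 to 55.6 in WT E2 uteri and 63.0 to 71.9 in WT saline uteri. Of 12 markers of fat stroma and preadipocytes, 2 rose and 4 fell in WT uteri, with sums of 286 to 305 in EAAE E2 uteri, 270 to 286 in EAAE saline uteri, 214 to 235 in WT E2 uteri and 197 to 216 in WT saline uteri. Of 8 mesothelial markers 1 rose and none fell, with sums of 37.3 to 44.1 in EAAE E2 uteri, 31.4 to 40.8 in EAAE saline uteri, 23.7 to 25.4 in WT E2 uteri and 22.0 to 30.6 in WT saline uteri. In EAAE uteri no marker of the 4 lists passed, with unadjusted p under 0.05 for 0 macrophage, 3 endothelial, 2 stroma and 1 mesothelial markers. No share of all genes is given for these unadjusted counts. All markers of these 4 lists were tested and none was at background throughout. These sums, like that of the 16 adipocyte genes, add intensities on the linear scale, so the brightest genes weigh most. Gsn, a stroma marker, was at 7.75, 7.72 and 7.73 in EAAE saline uteri and at 7.16, 6.95 and 7.16 in WT saline uteri. Under saline the median differences, EAAE minus WT, were -0.89 for macrophage, -0.22 for endothelial, -0.31 for stroma and preadipocyte and -0.35 for mesothelial markers. The median differences in WT uteri were -0.60 for macrophage, -0.16 for endothelial, -0.07 for stroma and preadipocyte and -0.57 for mesothelial markers, and the part that any of these cells has in the level of Pparg was not tested. Dlk1, a preadipocyte marker that is also imprinted, was higher in EAAE than in WT uteri by 6.67 under saline (adjusted p = 1.44e-06, limma). Fap, of the same list, was lower by 1.81 (adjusted p = 3.17e-05). Of the 12 markers of that list, 4 were higher and 3 lower in EAAE uteri under saline, where 14.5% of all genes were higher and 15.1% lower.

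The genes whose levels tracked Pparg most closely over the 12 arrays were Slc25a5, which exchanges ATP and ADP across the inner mitochondrial membrane (r = 0.976), Ppp4c (r = 0.969), a transcript named ENSMUST00000087063 (r = 0.964), Tcf15 (r = 0.963) and Lpgat1 (r = 0.962). Their E2 differences in WT uteri, 0.49 to 1.12, were smaller than that of Pparg, and in EAAE uteri they lay between -0.12 and 0.17. When group means were taken off, the closest were Rgcc (r = 0.972), Abcd2 (r = 0.971), Orm2 (r = 0.971), Abhd15 (r = 0.967) and Apoc1 (r = 0.965), and none of these 5 had a positive difference in WT uteri (-2.44 to -0.32). Pparg thus matched different genes in the levels, which mix differences between and within groups, and in the deviations from group means. The mean of the 9 fat genes was followed most closely by Car3, a carbonic anhydrase abundant in fat and muscle (r = 0.991), a transcript named NAP025923-1 (r = 0.989), Myl1 (r = 0.989), Apoc1 (r = 0.986) and Wfdc21 (r = 0.984). Without group means they were NAP025923-1 (r = 0.989), Car3 (r = 0.981), Myl1 (r = 0.979), Slc7a10 (r = 0.974) and Wfdc21 (r = 0.966). These correlations rest on 12 arrays in 4 groups and are a description. Some of these genes were dim: Abcd2 was well above background on 6 of the 12 arrays, Wfdc21 on 9, Orm2 on 10, and Myl1 and Slc7a10 on 11. Their correlations and differences thus rest in part on background values.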

How the data were processed

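RNA of 12 uteri was hybridised to 1-colour Agilent arrays (Cy3). Per the file headers, the authors deposited the scanner output of Agilent Feature Extraction 9.5.3.1, in which the processed signal intensity of each spot is already background-corrected (array design on mm7); the submitters' processing notes name version 9.5. The deposited series table held the same intensity values. From these the log2 of the processed intensity minus the log2 of each array's 75th percentile was computed. Of 45018 spots, controls (1639) and outlier-flagged spots (56 to 117 per array) were left out, and spots of a probe were averaged. A probe had to exceed background (the scanner's flag, on at least 0.5 of its spots) in every mouse of 1 group or more, which left 28998 of 41174 probes and, with the brightest probe per gene, 19291 genes. Genes were named from the files' names and accessions through RefSeq's table. One limma fit (3.58.1, R 4.3.3) of 4 group means gave 5 comparisons, 2-sided, Benjamini-Hochberg adjusted over all genes, threshold 0.05. The number of arrays limits the precision.

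The 10 genes, the lists and the tests were chosen with earlier results of these data known. Named list genes are up to 4 per list with the smallest p in E2 against saline in either genotype or EAAE against WT under saline; those named for likeness are the 5 with the highest correlation. One list gene is counted but not reported here by name. The lines through 9 arrays and the covariate of 6 fat genes were chosen after seeing the data. EAAE against WT after E2, designed as a test, is given for the 10 genes as a description, since the WT E2 arrays chose them. Replicate numbers did not pair the samples. A sequence table gave promoter windows for 9 of the 10 genes (RefSeq, GRCm38.p6), and none is printed for Fabp4. Alternatives changed the background correction, scaling, filter, probe rule, groups fitted, slide, position and replicate block, and left out each mouse in turn. The fit was tested on simulated data.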

Additional observations from a re-analysis of the deposited data

Results flagged for a closer look

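Thrsp is listed because it was higher after E2 in all 3 EAAE uteri (3.58, 3.57 and 3.18 after E2 against 2.63, 2.47 and 1.64 under saline) and lower after E2 in all 3 WT uteri (0.30, 0.32 and -0.04 against 3.22, 2.11 and 2.20). The difference of the responses, EAAE minus WT, was 3.51 log2 units, and it was not tested.

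Of 35 list genes chosen by the rule for naming, 21 responded to E2 differently in the genotypes by the interaction term of the limma fit (adjusted p under 0.05). The rule chose them in part by their E2 response in WT, which enters that term, so the count says nothing of how common such differences are. The response in EAAE minus that in WT was positive for Hcar1 (4.07), G0s2 (2.19), Hoxa10 (1.89), Cldn5 (1.75), Cd14 (1.62), Cd163 (1.54), Fap (1.22), Lpin1 (1.22), Cpt2 (0.96), Klf5 (0.81), Plin3 (0.69), Tek (0.64), Acot2 (0.56) and Tie1 (0.48). The value of Hcar1 rests on WT E2 arrays where it was not well above background, so its size is not a measurement. The response difference was negative for Cebpb (-3.83), Pdk4 (-2.67), Stat5a (-2.52), Klf4 (-2.28), Pgr (-1.56), Icam1 (-1.27) and Eng (-1.16). The adjusted p ran from 1.51e-06 for Klf4 to 0.0331 for Cd163. Groups of 3 mice were not searched for single outlying values.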

How the results depend on the processing

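None of the called differences of the 10 genes changed direction under the alternatives run. With a covariate for fat content, the Pparg difference in WT uteri moved to 4.30 (16 adipocyte genes) and to 4.25 (6 fat genes, chosen after seeing the data), and Pparg apart from the fat genes to 4.86, against 2.60 and 5.58 without; the index does not overlap between WT E2 and the other uteri, so these extend a line past its data. With the slide as a block and position as a term, the count for EAAE against WT after E2 was 2 and not 10, with Lipe and Thrsp remaining; position and the EAAE E2 group cannot be told apart. Leaving out each mouse gave a median of the 9 fat genes in WT of -4.04 to -2.45, a Pparg difference of 2.32 to 3.01, a response difference of 2.41 to 3.99 (Pparg -3.18 to -2.10), a Pparg distance from the fat genes of 5.26 to 6.10, and a count of 7 to 10 for EAAE against WT after E2. It left 0 calls in EAAE and under saline. Thrsp in EAAE stayed between adjusted p 0.0578 and 0.37.

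Same-numbered samples did not deviate together (r from -0.28 to 0.27 over 18 pairs, against -0.36 to 0.35 over 36 others), so the numbers name samples only. With the replicate block the counts were 0, 0 and 10, as without it, and the Pparg difference in WT was 2.60. The block lowered the number of all genes called for E2 in EAAE to 72 higher and 65 lower, against 132 and 145.

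That number also fell to 72 and 49 without the filter, to 66 and 73 with the slide block, to 5 and 2 in a fit of the 2 groups alone, to 3 and 1 with slide and position, and to 38 and 25 without EAAE saline mouse 2, the lowest of the 8 such omissions that moved it by over 1.5 times. With slide and position, the calls were 2576 and 3678 for E2 in WT (3774 and 5750 otherwise), 231 and 191 under saline (2802 and 2911; 1762 and 1869 with the slide alone) and 2925 and 2275 after E2 (6462 and 4722). Since position ran along with genotype and treatment, the drops with position as a term cannot be assigned to either. Scaling to the array median shifted the median of all genes in WT to -0.012, against -0.146, and gave 4492 higher and 3949 lower there, and 128 and 75 in EAAE. The cause was not tested. Lep, near background, has only bounds in WT E2 uteri.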
